A study of Rattus norvegicus with 24 samples.

Results

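The expression of 7 genes of the endocannabinoid system was followed in 2 brain regions of rats after liver surgery, with and without electroacupuncture. The regions were the hypothalamic paraventricular nucleus (PVN) and the central amygdala (CEA). They were taken by symbol, as the rows named Cnr1, Dagla, Daglb, Napepld, Mgll, Abhd6 and Faah among 35032 genes in the count table, and all 7 were present and passed the filter on low counts. Endocannabinoids are lipids that a neuron makes on demand from its membrane. They travel back across the synapse and bind the CB1 receptor, encoded by Cnr1, on the sending terminal, where the receptor lowers transmitter release. The lipid 2-arachidonoylglycerol (2-AG) is made by the diacylglycerol lipases (Dagla, Daglb) and broken down mainly by monoacylglycerol lipase (Mgll), with a smaller part for Abhd6. Anandamide can be made by the phospholipase D encoded by Napepld and is broken down by fatty acid amide hydrolase (Faah). In both nuclei this signal is known as a brake on the stress axis.

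The 24 libraries came from male Sprague-Dawley rats and formed 8 groups of 3, from 2 regions and 4 treatments. The normal control rats (NC) had no operation. The HT rats had part of the left liver lobe removed under isoflurane, the HT+EA rats had in addition current passed through needles at the Zusanli and Sanyinjiao points before and after the operation, and the SEA rats had the operation and the needles without current. All animals were restrained alike, and tissue was taken a day after the last stimulation. No sham operation was described for NC, so that HT against NC holds anaesthesia and surgery together. The labels name no animal for any library, and by the methods the brain samples were collected together as a single batch and not from a single animal.

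In the count table the genes are listed with an Ensembl identifier and a position, given here as they stand because the table names no genome build. Cnr1 (ENSRNOG00000008223) lies on chromosome 5 from 49311030 to 49333056 (+), and Faah (ENSRNOG00000011019) on the same chromosome from 134331929 to 134348995 (-). Mgll (ENSRNOG00000014508) lies on chromosome 4 from 120671489 to 120771088 (+), and Napepld (ENSRNOG00000011363) on the same chromosome from 9966891 to 10002247 (+). Dagla (ENSRNOG00000027264) lies on chromosome 1 from 226297016 to 226353611 (-), Daglb (ENSRNOG00000001079) on chromosome 12 from 13113237 to 13157666 (-) and Abhd6 (ENSRNOG00000008167) on chromosome 15 from 18647844 to 18695133 (-). Counts were summed over each whole gene, so that transcripts of a gene are not told apart.

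Library totals ranged from 13152800 to 18607000 counts, a ratio of 1.41. Levels are given as CPM, read counts scaled to library size, with the trimmed mean of M values over the 24 libraries. The PVN marker genes (Crh, Avp, Oxt, Trh, Sim1 and Otp, 6 of 6 in the table) summed to between 417 and 1333 CPM in the PVN libraries and to between 34.8 and 181 CPM in the CEA libraries. Of the CEA markers (5 of 5 in the table) only Prkcd and Penk were higher in the CEA, with means of 293 against 96.8 CPM and 785 against 180.2 CPM. Nts (14.5 against 28.1 CPM), Sst (169.6 against 268 CPM) and Dlk1 (12.6 against 111 CPM) were lower there, so that these markers went with the CEA label only in part. Markers of striatal projection neurons (6 of 6) were also high in the CEA libraries, at 1803 to 5527 CPM against 130 to 242 CPM in the PVN. The number of genes called in the PVN depended on the control library PVN NC replicate 2. With it, 2 genes of the whole table differed between HT and NC, and without it 3418 did (edgeR quasi-likelihood test, adjusted p under 0.05). Values without it, with 2 NC libraries left, are therefore given for the comparisons that rest on PVN NC. They show how far a result rests on that library and do not mark it as faulty. In some marker sums it was NC replicate 1 that stood apart. Thalamic markers summed to 108 CPM there, against 239 and 226 CPM in replicates 2 and 3. Markers of interneurons of the cholecystokinin class summed to 65.1 CPM, against 139 and 124 CPM. CEA HT+EA replicate 2, as its title names it, held 3.798% mitochondrial counts, against 10.1% to 14.4% in the other 11 CEA libraries, and the study left a set of CEA HT+EA out of its network analysis without naming it.

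Compared per kilobase of gene length (FPKM), Mgll was the most abundant of the 7 transcripts in both regions, with a mean of 38.6 FPKM in the PVN (coefficient of variation 25.9%, n = 12 libraries) and of 67.9 ± 10.4 FPKM in the CEA (SD, n = 12). Cnr1 followed with 20.6 ± 1.83 FPKM in the PVN and 45.3 ± 22.5 FPKM in the CEA. Dagla stood at 14.6 ± 2.02 FPKM in the PVN and Abhd6 at 13.2 ± 1.16 FPKM. In the CEA they reached 22.2 ± 4.99 FPKM and 21.0 ± 2.47 FPKM. Within each region the means of Dagla and Abhd6 lay closer together than the SD of Dagla. Daglb and Napepld came next in the PVN, with 8.71 ± 0.547 and 8.41 ± 2.05 FPKM over the 12 libraries. That order rested on NC, at means of 9.203 FPKM for Daglb and 5.821 FPKM for Napepld. In HT, HT+EA and SEA of the PVN the mean of Napepld was the higher. In the CEA Napepld was the higher over the 12 libraries, with 12.4 ± 6.22 FPKM against 9.23 ± 1.12 FPKM for Daglb. Faah was the lowest in both, with 2.43 ± 1.49 FPKM in the PVN and 2.10 ± 2.07 FPKM in the CEA. The genes that act on 2-AG at either end, Dagla for synthesis and Mgll for breakdown, were thus each higher per length than their anandamide counterparts Napepld and Faah in both regions. This ranking is a description, with no test between genes, and it rests on the lengths in the table, such as 1352 bases for Mgll and 5465 for Cnr1.

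**Figure D1:**
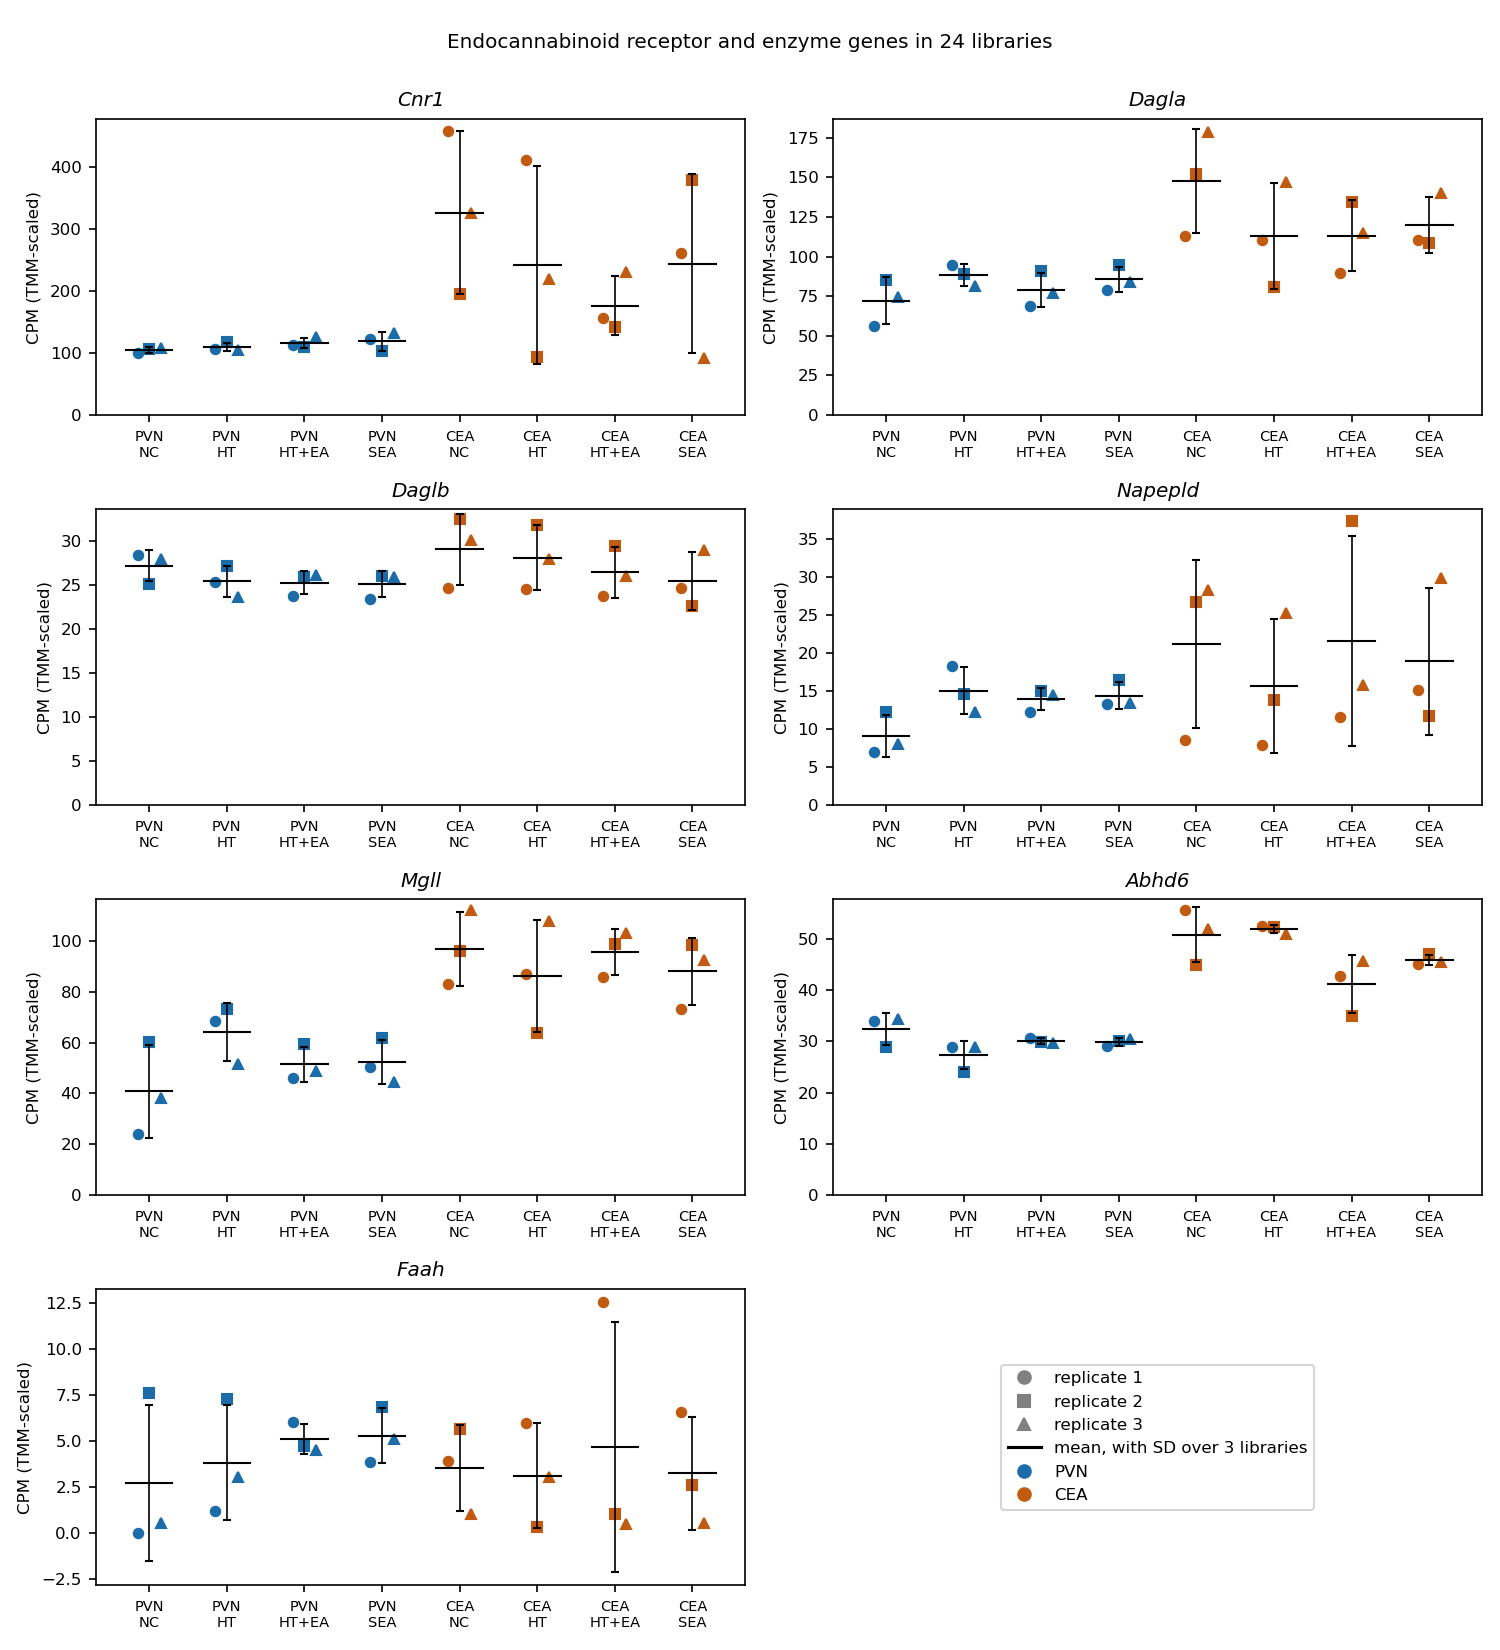
Level of each gene in CPM on the vertical axis, by region and treatment, with 1 point for each library (marker shape gives the replicate number), a line for the mean and a bar for the SD over 3 libraries. Cnr1 lay between 99.4 and 133 CPM in all 12 PVN libraries and between 92.3 and 459 CPM in the CEA libraries, and Abhd6 was the only gene of the 7 whose regions did not overlap.

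The first comparison asked how the system differed between the regions in rats without any treatment. In NC, Cnr1, Dagla, Mgll and Abhd6 were higher in the CEA than in the PVN, while Daglb and Faah did not pass the test and Napepld narrowly missed it. Thus 4 of 7 genes were called, all higher in the CEA, where 26.4% of all genes were called in either direction and 12.7% higher. For the same 4 genes the 3 CEA libraries all lay above the 3 PVN libraries, which was so for 21.5% of all genes, and 45.3% were free of overlap in either direction. The median log2 fold change of the 7 genes was 1.03, against -0.01 over all genes tested. Without PVN NC replicate 2 the same 4 genes were called, with log2 fold changes of 1.64 for Cnr1 (adjusted p = 0.0141), 1.64 for Mgll (0.00498), 1.18 for Dagla (0.0126) and 0.57 for Abhd6 (0.0113).

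Cnr1, the receptor, was measured at 459, 195 and 327 CPM in the CEA NC libraries and at 99.4, 107 and 109 CPM in the PVN NC libraries. The CEA libraries were all higher but spread over more than the whole PVN range. Its log2 fold change was 1.64 (SE 0.28, adjusted p = 0.00647). Dagla, the main neuronal synthase of 2-AG, was at 113, 152 and 178 CPM in the CEA and at 56.1, 85.4 and 74.5 CPM in the PVN, without overlap and with a log2 fold change of 1.03 (SE 0.21, adjusted p = 0.0123). Its relative Daglb was at 24.6, 32.4 and 30.1 CPM in the CEA and at 28.4, 25.1 and 27.99 CPM in the PVN. These ranges crossed, and Daglb gave a log2 fold change of 0.09 (SE 0.14, adjusted p = 0.646). The 2 diacylglycerol lipase genes thus gave different results in the same libraries, although the difference between them was not itself tested.

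Among the enzymes that break down 2-AG, Mgll was at 82.9, 96.0 and 112 CPM in the CEA NC libraries and at 23.9, 60.3 and 38.2 CPM in the PVN NC libraries. All CEA values were higher, and PVN replicate 1 was the lowest of the 6. For Mgll this gave a log2 fold change of 1.24 (SE 0.31, adjusted p = 0.0246), and this call was lost without CEA NC replicate 2 (adjusted p = 0.0642), CEA NC replicate 3 (0.0803) or PVN NC replicate 3 (0.0828). Abhd6, a membrane hydrolase that faces the inside of the receiving neuron, was at 55.6, 45.0 and 51.9 CPM in the CEA and at 34.0, 28.9 and 34.4 CPM in the PVN. Its replicates were tight, and its log2 fold change of 0.65 (SE 0.13, adjusted p = 0.0103) kept its call when any library was left out.

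For the anandamide enzymes, Napepld was at 8.52, 26.8 and 28.3 CPM in the CEA NC libraries and at 7.02, 12.2 and 7.97 CPM in the PVN NC libraries. CEA NC replicate 1 fell within the PVN range and the other CEA libraries lay above it. Napepld gave a log2 fold change of 1.22 (SE 0.45, adjusted p = 0.0826), and the gene passed without CEA NC replicate 1 (1.60, adjusted p = 0.00691) and with the replicate number as a block (1.10, adjusted p = 0.0487). Faah was at 3.90, 5.68 and 1.06 CPM in the CEA and at 0, 7.63 and 0.553 CPM in the PVN. The value of 0 in PVN NC replicate 1 allows up to 0.190 CPM at the depth of that library, and the other 2 PVN libraries stood on either side of the CEA range. The log2 fold change of Faah was 0.37 with an SE of 1.25 (adjusted p = 0.850), so that no difference in either direction was detectable.

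**Figure D2:**
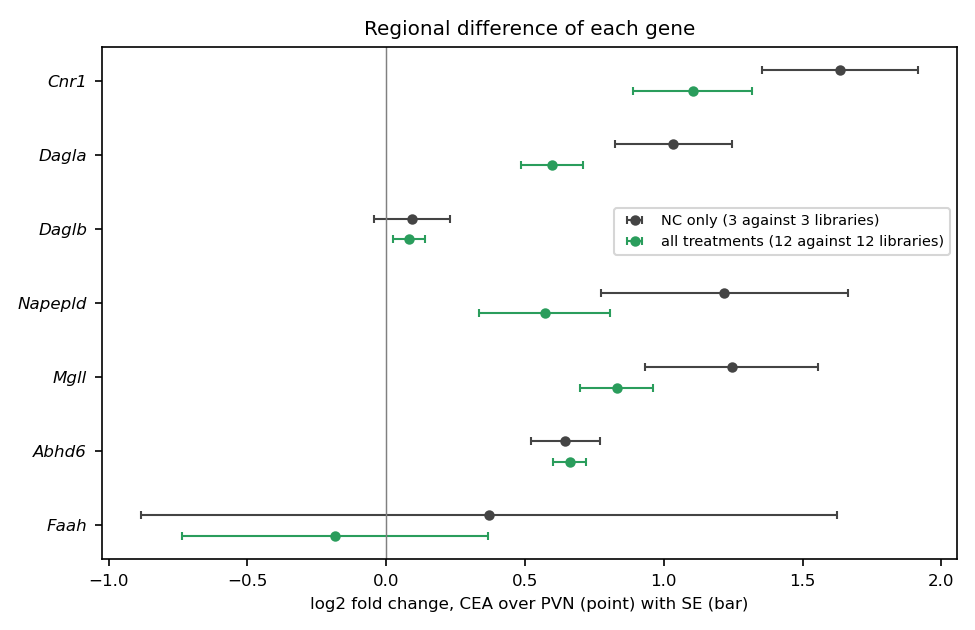
Log2 fold change of CEA over PVN for each gene (points, with SE as bars), in NC alone and over all treatments. Cnr1, Dagla, Mgll and Abhd6 lie to the right of 0 in both fits, Daglb lies near 0, and the bars of Faah cross 0.

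Over all 24 libraries, with treatment as a term, 5 of 7 genes were higher in the CEA and none was lower, in a comparison in which 56.3% of all genes were called and 26.9% were called higher. In log2 units the difference was 1.10 for Cnr1 (SE 0.21, adjusted p = 1.22e-04), 0.83 for Mgll (SE 0.13, adjusted p = 9.34e-06), 0.60 for Dagla (SE 0.11, adjusted p = 7.47e-05) and 0.66 for Abhd6 (SE 0.06, adjusted p = 2.28e-09). For these 4 genes the call was kept on leaving out each of the 24 libraries. Napepld had a log2 fold change of 0.57 (SE 0.24, adjusted p = 0.0431), and its call was lost on leaving out any of 14 libraries, most of all CEA HT+EA replicate 2 (0.43, adjusted p = 0.113). It was lost with the replicate block as well (0.50, adjusted p = 0.0597), which left 4 of 7 genes called. Daglb (0.08, SE 0.06, adjusted p = 0.246) and Faah (-0.19, SE 0.55, adjusted p = 0.795) were not called. Lists of markers were higher in the CEA as well, with 6 of 6 called for striatal projection neurons (median log2 fold change 4.34), 5 of 5 for oligodendrocytes (1.27), 4 of 4 for interneurons of the cholecystokinin class (1.19) and 5 of 5 for microglia (0.66), and their part in the values of the 7 genes was not tested. Because these libraries are of whole tissue, more cells of an expressing type and more RNA for each cell cannot be told apart.

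By treatment, the separation of the regions was not the same for every gene. Abhd6 ranged from 34.9 to 55.6 CPM in the CEA and from 24.1 to 34.4 CPM in the PVN, and it was the only gene of the 7 for which all 12 CEA libraries exceeded all 12 PVN libraries, as 6.46% of all genes did (14.3% in either direction). Within HT alone Abhd6 was again the only gene without overlap, beside 42.5% of all genes in either direction. Within HT+EA, Cnr1, Mgll and Abhd6 did not overlap (43.9% of all genes), and within SEA, Mgll, Dagla and Abhd6 did not (46.5%). The genes so separated were all higher in the CEA, while the shares within HT, HT+EA and SEA count both directions. Within HT+EA and within SEA the count was 3 of 7, near the share of all genes. Whether the separation depended on the treatment was not tested.

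The spread among replicates of a group also differed by region. For Cnr1 the SD within groups, on the log2 scale, was 0.12 in the PVN and 0.83 in the CEA, a ratio of 6.96, whereas the median ratio over all genes was 1.40. In the CEA it reached 411, 94.3 and 219 CPM in HT, 157, 142 and 231 CPM in HT+EA, and 262, 379.7 and 92.3 CPM in SEA. In the PVN, in contrast, it was 107, 117 and 105 CPM in HT, 113, 110.0 and 126 CPM in HT+EA, and 122, 103 and 133 CPM in SEA. In HT and in SEA of the CEA the lowest library lay below all 12 PVN libraries, while the highest stood several times above it. Napepld showed the same direction, with a log2 SD of 0.28 in the PVN and 0.85 in the CEA, and Mgll the opposite, with 0.39 and 0.25.

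Faah was the least stable of the 7, with a log2 SD within groups of 1.64 in the PVN and 1.82 in the CEA, above that of 99.7% of genes in both. Its counts in the CEA were 65, 96 and 16 in NC, 92, 5 and 51 in HT, 174, 16 and 9 in HT+EA, and 100, 42 and 7 in SEA. In the PVN they were 0, 139 and 10 in NC, 20, 113 and 51 in HT, 95, 90 and 85 in HT+EA, and 65, 106 and 84 in SEA. Every group but HT+EA and SEA of the PVN therefore held libraries that differed manyfold, at similar depth.

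The next comparisons asked what surgery did to these genes in the PVN. None of the 7 passed the adjusted threshold for HT against NC, where 0.012% of all genes did (edgeR), and DESeq2 with adjustment called none of them either. At an unadjusted p under 0.05 edgeR called 1 of 7, Napepld, beside 11% of all genes. The mean of Napepld was 15.1 ± 3.10 CPM in HT and 9.07 ± 2.78 CPM in NC, and that of Mgll was 64.3 ± 11.4 CPM in HT and 40.8 ± 18.4 CPM in NC (SD, n = 3). For 0 of 7 genes were the HT and NC libraries free of overlap, as they were for 17.1% of all genes. The median log2 fold change of the 7 genes was 0.29, against -0.01 over all genes. The PVN markers moved beside them, with a sum of 417 to 954 CPM in HT and 1003 to 1333 CPM in NC, without overlap. Their median log2 fold change was -0.57, with 3 of 6 at an unadjusted p under 0.05 and 0 of 6 past the adjusted threshold, while the thalamic markers had a median of 0.60 with 1 of 4 at an unadjusted p under 0.05, beside 0.65 for Mgll and 0.72 for Napepld. The lists were also read without PVN NC replicate 2, a setting chosen for them after seeing the data. The medians were then -0.64 for the PVN markers (2 of 6 called lower) and 0.79 for the thalamic markers (0 of 4 called). For the cholecystokinin class the median was 0.30 with all libraries, with 1 of 4 at an unadjusted p under 0.05. Without that replicate it was 0.44, with 1 of 4 called higher, beside 20.2% of all genes called. The part of these lists in the values of the 7 genes was not tested.

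Mgll in the PVN was at 68.3, 73.0 and 51.4 CPM in HT. PVN NC replicate 2, at 60.3 CPM, lay inside this range, and replicates 1 and 3 of NC lay below it. HT over NC gave a log2 fold change of 0.65 for Mgll (SE 0.31, adjusted p = 0.418). Without PVN NC replicate 2 it was 1.04 (adjusted p = 0.0175). The study singled out Mgll from these same libraries, so that its values are no independent evidence of a direction. Napepld was at 18.3, 14.7 and 12.2 CPM in HT, where HT replicate 3 met PVN NC replicate 2, and its log2 fold change was 0.72 (SE 0.25, unadjusted p = 0.0209, adjusted p = 0.418). Without PVN NC replicate 2 it was 0.999 (adjusted p = 0.0142). In that fit 2 of 7 genes were called, and 20.2% of all genes.

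With all libraries, the other genes moved less between HT and NC in the PVN. Dagla was at 94.9, 89.3 and 81.2 CPM in HT, with a log2 fold change of 0.29 (SE 0.16, adjusted p = 0.427) and with NC replicate 2 again inside the HT range. Abhd6 was at 28.9, 24.1 and 29.0 CPM in HT, lower than NC replicates 1 and 3, with a log2 fold change of -0.25 (SE 0.12, adjusted p = 0.418). Cnr1 (0.06, SE 0.08) and Daglb (-0.10, SE 0.11) lay close to 0. Without PVN NC replicate 2 the values were 0.43 for Dagla (adjusted p = 0.0553), -0.33 for Abhd6 (0.0737), 0.07 for Cnr1 (0.568) and -0.16 for Daglb (0.303). Faah gave 0.47 with an SE of 1.23, and its sign turned when PVN NC replicate 1, PVN NC replicate 3 or PVN HT replicate 2 was left out. Without PVN NC replicate 2 its log2 fold change was larger than those of Mgll and Napepld, but it was not called. NC then held 0 and 10 counts of Faah, against 20, 113 and 51 in HT, so that its fold depends on how the fit treats counts near 0.

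**Figure D3:**
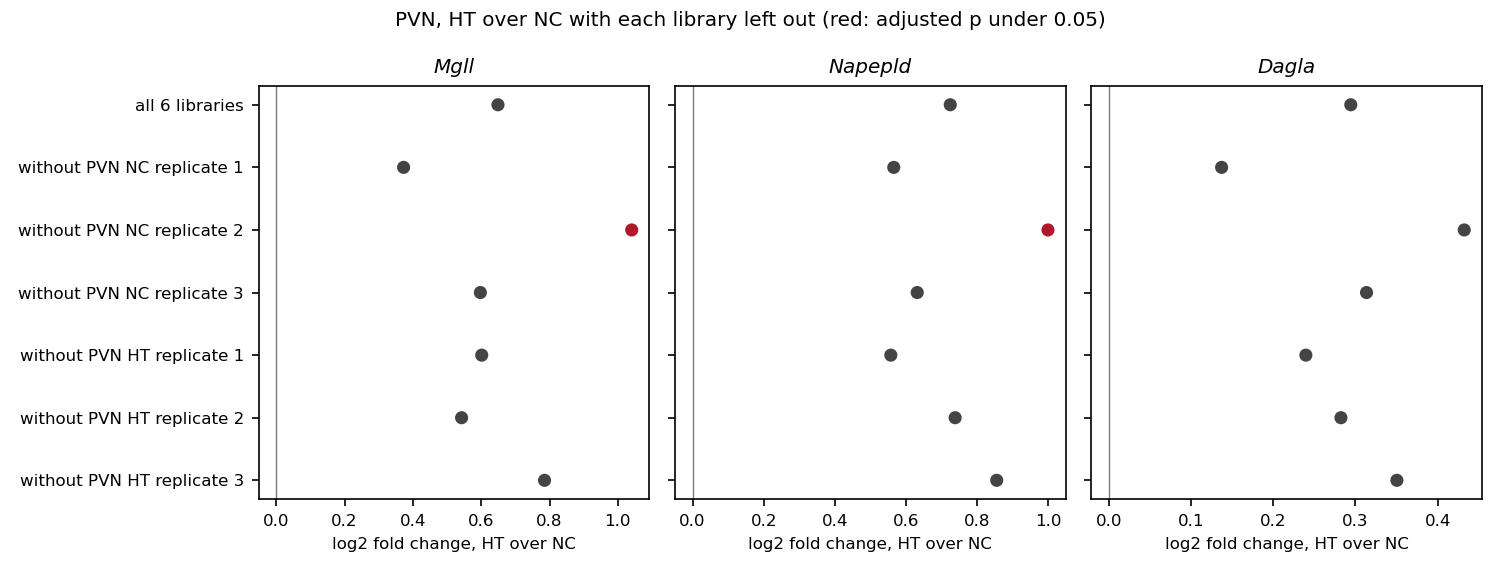
Log2 fold change of HT over NC in the PVN for Mgll, Napepld and Dagla, from all 6 libraries and with each library left out in turn. Values for Mgll and Napepld passed the adjusted threshold (red) only without PVN NC replicate 2, where they were 1.04 and 0.999, and Dagla passed in none.

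The promoters of Mgll and Napepld are shown because these genes moved together over the PVN libraries. RefSeq promoter sequences were found for 5 of the 7 genes, all but Cnr1 and Dagla. The 250 bases before the start of each gene are given 5′ to 3′ on the strand of the gene, in the build GRCr8 and not that of the count table, at chr4:122749186-122749435 (+) for Mgll and chr4:14253010-14253259 (+) for Napepld, with the GC box (GGGCGG, or CCGCCC on the other strand) in capitals.
Mgll: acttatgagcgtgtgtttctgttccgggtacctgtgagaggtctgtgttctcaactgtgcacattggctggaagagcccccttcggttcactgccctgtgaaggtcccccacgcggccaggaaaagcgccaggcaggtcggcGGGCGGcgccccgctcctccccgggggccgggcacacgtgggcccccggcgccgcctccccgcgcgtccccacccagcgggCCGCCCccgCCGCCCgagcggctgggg
Napepld: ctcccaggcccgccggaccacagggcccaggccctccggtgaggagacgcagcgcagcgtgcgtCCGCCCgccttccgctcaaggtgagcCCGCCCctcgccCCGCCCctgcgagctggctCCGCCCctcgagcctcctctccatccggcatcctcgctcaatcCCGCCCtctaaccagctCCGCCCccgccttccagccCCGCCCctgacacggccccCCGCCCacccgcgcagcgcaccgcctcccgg
The GC box was found 3 times in the Mgll window and 8 times in the Napepld window, and 30.5% of the 33469 promoters of this length held it at least once. The Faah window held 1, and those of Daglb and Abhd6 held 0. The windows of Mgll and Napepld had a GC content of 72.4% and 77.2%, against a median of 51.2% over all promoters. Faah, at 70.4%, was close to Mgll, and Daglb and Abhd6 had 56.4% and 58.4%. The E-box CACGTG was found 1 time in the Mgll window and in no other of the 5, beside 5.59% of all promoters. The TATA box (TATAAA) was found 1 time, in the Daglb window, beside 12.9% of all promoters. The CCAAT box was found 1 time each in the Mgll and Abhd6 windows, beside 34.0%. These matches describe letters and not binding.

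Electroacupuncture and sham needling were each compared with surgery alone in the PVN. For HT+EA against HT no gene of the 7 passed the adjusted threshold, beside 0.0961% of all genes, and 1 of 7, Mgll, had an unadjusted p under 0.05, beside 5.67% of all genes. For SEA against HT the counts were 0 of 7 by either measure, beside 0% and 4.38% of all genes. Mgll was at 45.9, 59.3 and 49.0 CPM in HT+EA and at 50.5, 61.6 and 44.5 CPM in SEA. In both groups the values overlapped those of HT and lay mostly below them. The log2 fold change of Mgll was -0.32 for HT+EA against HT (SE 0.14, unadjusted p = 0.0452, adjusted p = 0.862) and -0.30 for SEA against HT (SE 0.15, adjusted p = 0.981). These comparisons share the HT libraries. Marker lists moved beside these values, with median log2 fold changes of -0.30 and -0.25 for the thalamic markers (0 of 4 at an unadjusted p under 0.05 in both) and of 0.44 and 0.36 for the PVN markers (3 of 6 and 2 of 6), and their part was not tested. Directly compared, HT+EA and SEA gave -0.02 for Mgll (SE 0.13, adjusted p = 0.992), within the spread between replicates. In that comparison 0 of 7 genes were called (0% of all genes), 0 had an unadjusted p under 0.05 (5.21%) and 0 were free of overlap (10.1%).

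Abhd6 was at 30.7, 29.8 and 29.7 CPM in PVN HT+EA and at 29.1, 30.1 and 30.5 CPM in SEA. Every one of these 6 libraries exceeded the 3 HT libraries, and Abhd6 was the 1 gene of the 7 without overlap in each comparison, beside 11.3% of all genes for HT+EA and 9.85% for SEA. The shifts were small, with log2 fold changes of 0.14 (SE 0.09, adjusted p = 0.928) and 0.13 (SE 0.09, adjusted p = 0.981). Napepld stayed at 12.3, 15.03 and 14.5 CPM in HT+EA and at 13.3, 16.4 and 13.4 CPM in SEA, all within the HT range. Dagla was at 69.0, 90.6 and 77.0 CPM and at 79.0, 94.5 and 83.7 CPM, and Daglb ranged from 23.4 to 28.4 CPM over all 12 PVN libraries. None of these differed beyond the replicate spread.

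The needled groups of the PVN were also compared with NC, which uses the same NC libraries as HT against NC. Napepld was higher in every library of HT+EA and SEA than in every NC library, and so was Cnr1 for HT+EA, which makes 2 of 7 genes without overlap for HT+EA and 1 of 7 for SEA, beside 15.4% and 18.6% of all genes. Its log2 fold change was 0.62 for HT+EA (SE 0.23, unadjusted p = 0.0264, adjusted p = 0.461) and 0.65 for SEA (SE 0.23, unadjusted p = 0.0224, adjusted p = 0.375). None of the 7 passed the adjusted threshold in either comparison (0.0119% and 0% of all genes), and 1 of 7 had an unadjusted p under 0.05 in each (10.1% and 12.7%). Without PVN NC replicate 2, 3 of 7 were called in each, beside 19% and 24.3% of all genes. They were Mgll (0.74 in both), Napepld (0.91 and 0.93) and Faah (4.11 and 4.14), and for Faah the remaining NC libraries held 0 and 10 counts, so that its fold depends on how the fit treats counts near 0. The thalamic markers had medians of 0.28 for HT+EA and 0.35 for SEA against NC (0.48 and 0.54 without PVN NC replicate 2), and those of the cholecystokinin class 0.14 and 0.32 (0.29 and 0.47), and their part was not tested.

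**Figure D4:**
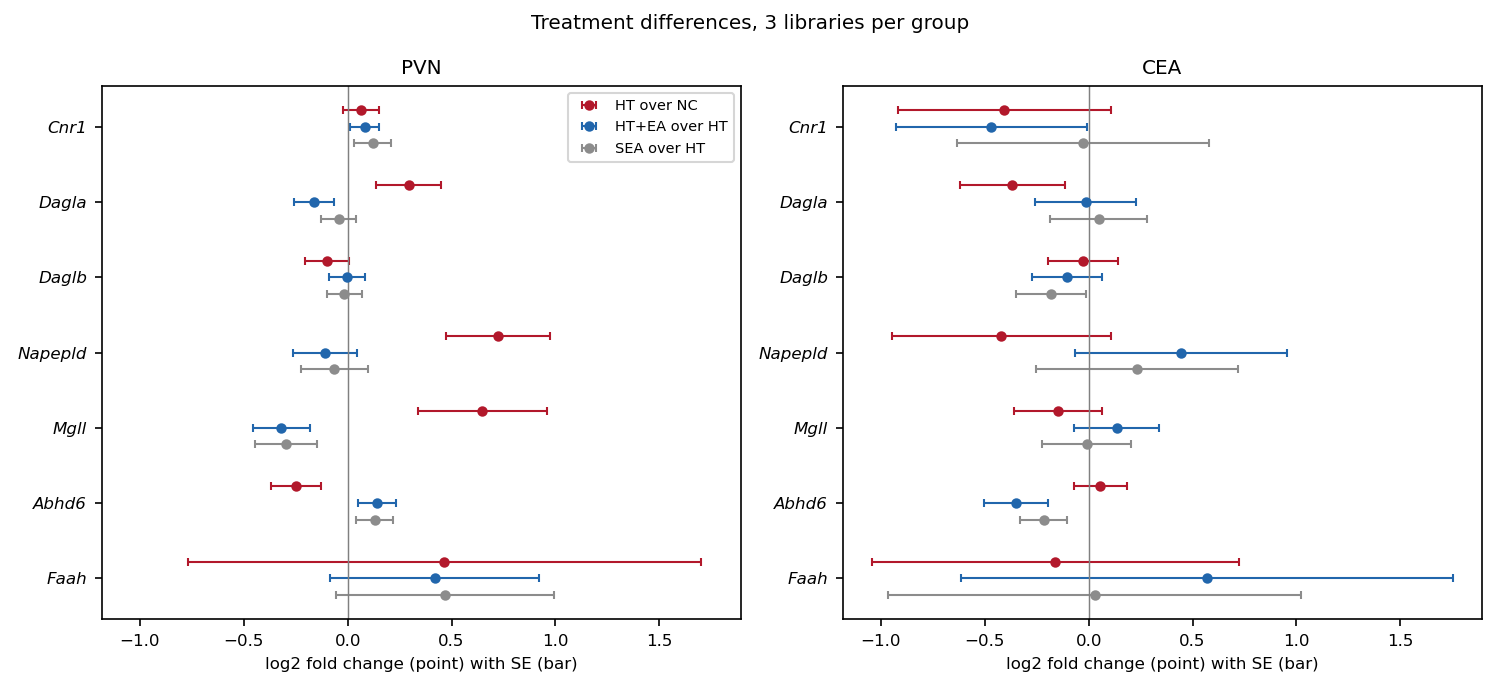
Log2 fold change (points, with SE as bars) of HT over NC, HT+EA over HT and SEA over HT for each gene in the PVN and the CEA. In the PVN Mgll was 0.65 for HT over NC and -0.32 and -0.30 for the needled groups over HT, and no value in the plot passed the adjusted threshold.

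The same comparisons were made in the CEA. None of the 7 genes passed the adjusted threshold for HT against NC, HT+EA against HT, SEA against HT or HT+EA against SEA, where 0% of all genes did, nor for HT+EA against NC (0.00606%) or SEA against NC (0%). At an unadjusted p under 0.05 the count was 0 of 7 for HT against NC (3.75% of all genes), HT+EA against HT (3.19%), SEA against HT (3.07%), HT+EA against SEA (1.99%) and SEA against NC (2.47%). The groups overlapped for all 7 genes in HT against NC (10.4% of all genes were free of overlap), HT+EA against SEA (6.83%), HT+EA against NC (10.2%) and SEA against NC (6.8%). The median log2 fold change of the 7 genes for HT against NC was -0.16, against 0.02 over all genes. For HT against NC, the log2 fold change was -0.41 for Cnr1 (SE 0.51, adjusted p = 0.925), -0.42 for Napepld (SE 0.53, adjusted p = 0.924), -0.37 for Dagla (SE 0.25, adjusted p = 0.918) and -0.15 for Mgll (SE 0.21, adjusted p = 0.934). Mgll was at 86.9, 63.9 and 108 CPM in CEA HT, at 85.6, 98.7 and 103 CPM in HT+EA and at 73.3, 98.3 and 92.5 CPM in SEA. All of these groups overlapped NC.

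Dagla in the CEA was at 110.4, 80.9 and 147 CPM in HT, at 89.8, 135 and 115 CPM in HT+EA and at 110.2, 109 and 140 CPM in SEA. Napepld was at 7.84, 13.8 and 25.2 CPM in HT, at 11.6, 37.4 and 15.8 CPM in HT+EA and at 15.1, 11.7 and 29.8 CPM in SEA. In every CEA group the highest Napepld library stood far above the lowest, and the treatments overlapped throughout. Daglb stayed between 22.7 and 32.4 CPM over the 12 CEA libraries.

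Abhd6 and Cnr1 gave the lowest unadjusted p of the 7 genes in the CEA. Abhd6 was at 52.5, 52.4 and 51.0 CPM in HT, at 42.8, 34.9 and 45.8 CPM in HT+EA and at 45.2, 47.0 and 45.5 CPM in SEA. All needled libraries lay below all HT libraries, for 1 of 7 genes in each comparison, beside 9.56% of all genes for HT+EA and 10.1% for SEA. The log2 fold change of Abhd6 was -0.35 for HT+EA against HT (SE 0.15, unadjusted p = 0.0535, adjusted p = 0.930) and -0.22 for SEA against HT (SE 0.11, adjusted p = 0.959). The lowest Abhd6 value of the CEA, 34.9 CPM, was that of HT+EA replicate 2, the library low in mitochondrial counts, and without it Abhd6 gave -0.24 for HT+EA against HT (adjusted p = 0.999). Cnr1 had a log2 fold change of -0.87 for HT+EA against NC (SE 0.31, unadjusted p = 0.0232, adjusted p = 0.960), the 1 gene of 7 with an unadjusted p under 0.05 there, beside 4.42% of all genes, and without HT+EA replicate 2 the value was -0.74 (adjusted p = 0.790). For HT+EA against HT it was -0.47 (SE 0.46, adjusted p = 0.930), and the sign turned without CEA HT replicate 1.

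Whether an effect differed between the regions was tested as an interaction. For HT against NC the log2 difference, PVN less CEA, was 0.82 for Mgll (SE 0.41, adjusted p = 0.425), 0.68 for Dagla (SE 0.32, adjusted p = 0.415) and 1.16 for Napepld (SE 0.65, adjusted p = 0.449). Without PVN NC replicate 2 these were 1.22 (adjusted p = 0.0750), 0.83 (0.184) and 1.44 (0.260). For HT+EA against HT it was 0.50 for Abhd6 (SE 0.16, unadjusted p = 0.0103, adjusted p = 0.932) and -0.45 for Mgll (SE 0.26, adjusted p = 0.945). No gene of the 7 passed the adjusted threshold in either test, where 0% of all genes did. At an unadjusted p under 0.05 the count was 0 of 7 for HT (12.1% of all genes) and 1 of 7, Abhd6, for HT+EA (4.52%).

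Several of these genes moved with markers of neighbouring tissue from library to library. In the PVN the summed CPM of the thalamic markers (Tcf7l2, Lef1, Ntng1 and Rgs16, 4 of 4 in the table and none at 0) was 108, 239 and 226 in NC, 353, 342 and 201 in HT, 226, 285 and 208 in HT+EA, and 235, 333 and 184 in SEA. NC replicate 1, the lowest for the markers, was also the lowest for Mgll, Dagla and Napepld, and HT replicates 1 and 2 were the highest for the markers and for Mgll. Over the 12 PVN libraries, on the log2 scale, Pearson's r with this sum was 0.92 for Mgll (Spearman's rho 0.86) and 0.88 for Dagla (rho 0.78). Without the 2 libraries farthest from the median of the markers, r was 0.77 and 0.64. Napepld gave an r of 0.79 with the thalamic markers (rho 0.72, and 0.44 without the 2 farthest), and its largest r in the PVN was negative, at -0.91 with the excitatory markers of cortex and hippocampus (rho -0.68, and -0.42 without the 2 farthest). In the PVN that sum was mostly Nrgn, at a mean of 129.8 CPM against 10.7 CPM for Slc17a7, while the median log2 fold change of the list for HT against NC was 0.43, the direction of Napepld. The markers of interneurons of the cholecystokinin class (Cck, Vip, Slc17a8 and Adarb2) gave nearly the same values, with r of 0.90 for Mgll (rho 0.87) and 0.87 for Dagla (rho 0.83), so that the relation was not particular to the thalamic list. The markers' part in the differences between HT and NC was not tested.

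**Figure D5:**
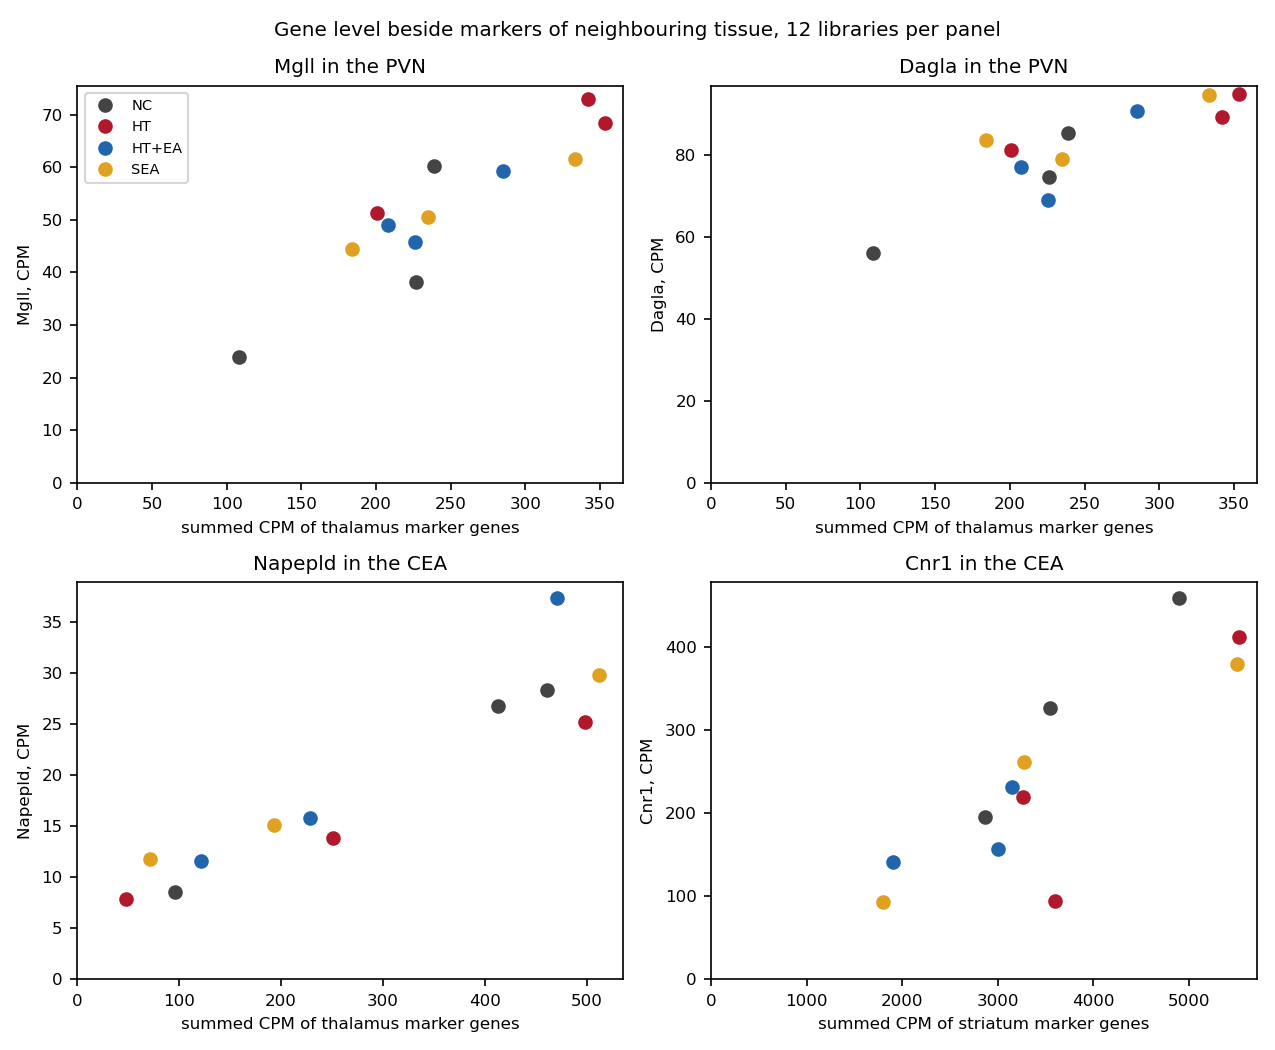
Level of Mgll and Dagla in the PVN and of Napepld in the CEA against the summed CPM of 4 thalamic markers, and of Cnr1 in the CEA against that of 6 striatal markers, with 12 libraries in each panel coloured by treatment. Libraries high for the markers were mostly high for the gene, with r on the log2 scale of 0.92, 0.88, 0.94 and 0.79, but CEA HT replicate 2 was low for Cnr1, at 94.3 CPM, beside a striatal sum of 3594 CPM.

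In the CEA, Napepld followed the thalamic markers, whose sum ranged from 96.2 to 461 in NC, 48.1 to 498 in HT, 122 to 470 in HT+EA and 71.4 to 512 in SEA (r = 0.94, rho 0.90 and 0.96 without the 2 farthest libraries, n = 12). With the markers of the cholecystokinin class it gave 0.91 (rho 0.83 and 0.89 without the 2 farthest), so that here too the relation was not particular to the thalamic list. Daglb gave 0.85 with the cholecystokinin class (rho 0.80 and 0.85 without the 2 farthest) and 0.80 both with the thalamic markers and with those of oligodendrocytes. Cnr1 followed the striatal markers, whose sum ranged from 2862 to 4894 in NC, 3265 to 5527 in HT, 1907 to 3154 in HT+EA and 1803 to 5508 in SEA (r = 0.79, rho 0.77 and 0.68 without the 2 farthest). Abhd6 followed the excitatory markers of cortex, hippocampus and basolateral amygdala, 7 of 7 in the table, with sums of 1369 to 1937 in NC, 1947 to 2133 in HT, 605 to 1396 in HT+EA and 598 to 1850 in SEA (r = 0.81, rho 0.84 and 0.85 without the 2 farthest). Nearly all of this sum was Nrgn, with a CEA mean of 1357 CPM, against 108 CPM for Slc17a7 and at most 3.13 CPM for each of the other members, so that the relation is mainly one with Nrgn. The HT+EA range lay below the HT range for both the striatal and the excitatory markers, and the SEA range lay below the HT range for the excitatory markers. The CEA markers moved likewise, with 1243 to 1764 CPM in HT, 1030 to 1137 CPM in HT+EA and 1015 to 1219 CPM in SEA. Abhd6 gave an r of 0.64 with them (rho 0.68 and 0.58 without the 2 farthest). The first list named for each gene was chosen after its values were seen, as that with the largest r among 11 lists in the CEA. The thalamic markers were chosen in the same way for Mgll and Dagla in the PVN. The points share regions of dissection and, in threes, a treatment, and the part of the markers was not tested.

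Mgll, Dagla and Napepld moved together in the PVN, Faah less closely with them, and several other pairs did not. Faah gave an r of 0.77 with Mgll, 0.73 with Napepld and 0.67 with Dagla there. In the PVN, with the 12 libraries as points, r was 0.92 for Mgll and Dagla, 0.88 for Mgll and Napepld, 0.85 for Dagla and Napepld and -0.80 for Mgll and Abhd6, but 0.16 for Cnr1 with Mgll and with Dagla, and -0.25 for Dagla and Daglb. In the CEA it was 0.78 for Mgll and Dagla and 0.71 for Dagla and Napepld, but 0.05 for Mgll and Daglb and -0.05 for Mgll and Faah. Of the synthases and hydrolases of 2-AG, Dagla and Mgll ran in parallel in both regions, while Dagla and Abhd6 gave -0.61 in the PVN and -0.08 in the CEA.

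Among 16208 other genes, those most like a given gene of the 7 were found by r over the 24 libraries after the mean of each region was removed. Napepld had the closest, Rnf152 and Sel1l3 (both 0.97). Dagla was followed by Rgs8 (0.94), a regulator of G protein signalling, and Brsk2 (0.93), a neuronal kinase. Mgll was followed by Shank3 (0.94), a scaffold of excitatory synapses, and Stum (0.93). For Cnr1 they were AABR07049960.1 (0.94) and Smpd3 (0.92), a sphingomyelinase. The likeness of both lay in the CEA, with r of 0.95 there for each. In the PVN r was -0.05 for AABR07049960.1 and 0.20 for Smpd3. For Daglb they were Gpr137 and Fahd2a (both 0.89). For Abhd6 they were Tspan31 (0.84) and RGD1562402 (0.83).

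Other genes of the pathway were read from a list of 25 receptors and partners, synthesis enzymes, and enzymes and carriers of breakdown, all of them in the table. With all libraries, in none of the 12 treatment comparisons did any of the 19 to 20 tested pass the adjusted threshold. With no adjustment, the counts at p under 0.05 in the PVN were 5 of 20 for HT against NC (11% of all genes), 0 of 20 for HT+EA against HT (5.67%), 1 of 20 for SEA against HT (4.38%), 1 of 20 for HT+EA against SEA (5.21%), 6 of 20 for HT+EA against NC (10.1%) and 4 of 20 for SEA against NC (12.7%). With PVN NC replicate 2 left out, 7 of 20 passed the adjusted threshold for HT against NC (4 higher and 3 lower), 7 of 20 for HT+EA against NC (4 and 3) and 6 of 20 for SEA against NC (2 and 4), beside 20.2%, 19% and 24.3% of all genes. In the CEA the largest count at an unadjusted p under 0.05 was 3 of 20 for HT+EA against NC, all 3 lower (4.42% of all genes). There it was 1 of 19 for HT+EA against SEA (1.99%) and for SEA against NC (2.47%), and 0 for HT against NC (3.75%), HT+EA against HT (3.19%) and SEA against HT (3.07%). Over all treatments 21 were tested between regions, with 5 higher and 6 lower in the CEA, beside 56.3% of all genes called and 26.9% called higher. The higher ones with the smallest adjusted p were Gde1 (0.54 log2, SE 0.07), a phosphodiesterase of another anandamide route, Ptgs2 (1.26, SE 0.16), the cyclooxygenase that oxidises endocannabinoids, Plcb1 (1.08, SE 0.14), which supplies diacylglycerol, and Fabp7 (0.34, SE 0.10), a fatty acid carrier. The lower ones were Ces1d, a carboxylesterase, Naaa (-0.73, SE 0.07), an acid amidase, Cnrip1 (-0.64, SE 0.09), a partner of the CB1 receptor, and Gdpd1 (-0.34, SE 0.05), a lysophospholipase D. Ces1d ranged from 4.08 to 15.6 CPM in the PVN and from 0 to 0.288 CPM in the CEA, where single counts set the level. Cnrip1 therefore ran opposite to Cnr1 between regions, at means of 63.3 ± 6.69 CPM in the PVN and 40.6 ± 7.42 CPM in the CEA (SD, n = 12).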

How the data were processed

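By the methods of the study, reads of strand-specific libraries were aligned by HISAT2 to a rat assembly, and featureCounts assigned them to genes. Versions were not given. The methods name mRatBN7.2, the submitters' processing notes name GRCh38 and hg38, and the table names no build, so that its coordinates are given as they stand. The authors deposited unnormalized read counts, which are whole numbers, and a column of gene lengths. A second header row was left out. It exchanges CEA HT+EA replicates 2 and 3, and the sample titles were followed. Total counts were 13152800 to 18607000, and 3 counts, the limit that a count of 0 allows, were 0.158 to 0.237 CPM (counting error only).

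Each pair of groups was fitted on its own with edgeR 4.0.16 (filterByExpr, TMM, quasi-likelihood test, two-sided, R 4.3.3), with Benjamini-Hochberg adjustment over all genes tested and a threshold of 0.05. The SE is the log2 fold change divided by the root of F. The regional fit over all treatments had treatment as a term, and interactions used region, treatment and their product. Printed CPM are scaled over 24 libraries, and FPKM are CPM per kilobase. Correlations used log2 CPM with a prior count of 2. Alternatives were DESeq2 1.42.0 (adjusted, and unadjusted p as in the study), its size factors, no filter, a replicate block, all 4 groups of a region in one fit, averaged group means and each library left out. The fits of some comparisons were run on simulated counts with large planted changes, a check that does not cover smaller differences. All 7 genes were named, the pathway genes were named up to 4 per direction by adjusted p between regions, and the 2 most alike genes by r, which for Faah are not reported here. The members and lists were chosen with earlier results of these data known. Replicates are separate samples by their titles, and the methods name 12 rats and samples of a single batch that were not from a single animal. No library is tied to an animal, so that p-values measure the spread between these samples, which may be partly technical.

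Whether replicate numbers pair samples was checked by correlating deviations from group means. Of 28 pairs of groups, every same-numbered pair exceeded 0.1 in 2, namely CEA NC with CEA HT (0.239, 0.180 and 0.294) and CEA NC with PVN NC (0.293, 0.130 and 0.196), a pairing drawn from the data alone. With the replicate block, Napepld passed between regions in NC (adjusted p = 0.0487).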

Additional observations from a re-analysis of the deposited data

Results flagged for a closer look

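For Abhd6 the change from HT to HT+EA went opposite ways in the 2 regions, without overlap of the groups in either. It was 0.14 in the PVN, where all 3 HT+EA libraries lay above all 3 HT libraries, and -0.35 in the CEA, where all lay below (groups free of overlap for 11.3% and 9.56% of all genes), a log2 difference of 0.49 between separate fits. The interaction term tested this difference and gave 0.50 (adjusted p = 0.932). In the CEA the excitatory markers moved beside Abhd6, with sums of 605 to 1396 CPM in HT+EA and 1947 to 2133 CPM in HT and a median log2 fold change of -1.33 over the 5 of 7 tested, and their part was not tested. The change from HT to SEA was likewise 0.13 in the PVN and -0.22 in the CEA, a log2 difference of 0.35, again without overlap of the groups (9.85% and 10.1% of all genes), and this difference was not tested. Both use the same HT libraries.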

How the results depend on the processing

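Between regions, Cnr1, Dagla and Abhd6 kept their direction and their call in NC and over all treatments under every setting run, and Mgll did in all but the 3 single-library omissions named above. For Napepld in NC, the call was gained with DESeq2 (adjusted p = 0.0165) and with the replicate block (1.10, adjusted p = 0.0487), and over all treatments it was lost with the replicate block (0.50, adjusted p = 0.0597). The number of the 7 genes called was 5 with the block in NC and 4 over all treatments, and the block changed no other call. The block was also fitted over groups whose numbers share only a replicate label, as in 26 of 28 pairs of groups. The fit over all treatments spans such pairs, so that there the block rests on the label.

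For the treatments, where 0 of 7 were called, the unadjusted DESeq2 rule of the study called 2 for HT against NC in the PVN (Mgll and Napepld), 1 for HT+EA against HT and 1 for SEA against HT (Mgll in both), 1 each for HT+EA and SEA against NC (Napepld), 1 for HT+EA against NC in the CEA (Cnr1) and 1 for the HT+EA interaction (Abhd6). The shares of all genes under the same rule were 11.3%, 4.08%, 2.65%, 10.7%, 12.6%, 4.07% and 4.82%. With each library left out in turn, 0 to 2 of 7 were called for HT against NC in the PVN, and 0 to 3 for HT+EA and for SEA against NC, the higher value in each case without PVN NC replicate 2. For the pathway genes and the marker lists this setting was chosen after seeing the data. Of the pathway genes, 7, 7 and 6 were called in these comparisons without that library against 0 with it. Between regions in NC it was 11 against 6 (36.1% of all genes), and for the HT interaction 1 against 0 (3.93%). The cause was not tested.

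Among the pairs of gene and comparison checked for this, signs turned only with a library left out, and only for values that were not called. Faah ranged from -0.38 to 3.68 for HT against NC in the PVN, from -0.20 to 3.59 between regions in NC and from -0.61 to 0.13 between regions over all treatments. Mgll ranged from -0.13 to 0.12 for HT+EA against SEA in the PVN and from -0.34 to 0.034 for HT against NC in the CEA, and Cnr1 from -0.85 to 0.16 for HT+EA against HT in the CEA. With 3 libraries a group and the depth above, Faah, at 0 to 174 counts, could not be resolved.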
